A study of Mus musculus with 24 samples.

Results

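The VF effect, the difference between the VF and the KI line, was set against itself in 2 bone marrow populations: its size in preMegE minus its size in LTHSC, gene by gene. Pre-megakaryocyte-erythroid progenitors (preMegE) are cells that can still form megakaryocytes, the source of platelets, or red cells, and LTHSC are long-term haematopoietic stem cells. The comparison uses 12 of the 24 libraries in the series, 3 each of preMegE VF, preMegE KI, LTHSC VF and LTHSC KI. All 12 came from bone marrow of C57BL/6N mice given tamoxifen on 5 days and sorted 12 weeks later. VF carries Vav1.Cre and the Jak2 mutation labelled VF, and KI carries Scl.Cre and a mouse Jak2 knock-in. The Cre driver therefore changes together with the mutation, and the labels do not say which line is unmutated, so KI was taken as the reference and not as wild type. The labels give neither the sorting gates nor the age of the mice, and do not say that replicates came from separate animals. The spread behind each p-value is that between these libraries, which may be technical.

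Jak2 codes for the kinase that carries the signals of the erythropoietin, thrombopoietin and granulocyte colony receptors into the cell, where STAT factors switch genes on. Activating Jak2 mutations drive myeloproliferative neoplasms, in which red cells, platelets or granulocytes are overproduced. A stem cell gives rise to preMegE through steps in which the granulocyte programme is normally shut off and the erythroid and platelet programmes are opened. The comparison asks which effects of the VF line present in stem cells were kept in this progenitor, which were lost and which ran the other way.

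Procr and Klf1 separated the 2 sorted populations. Procr, a stem cell surface receptor, was at 66.1 to 79.6 CPM in LTHSC VF and 68.6 to 72.2 in LTHSC KI, against 1.14 to 1.73 in the 6 preMegE libraries (CPM, read counts scaled to a common library size after TMM). Klf1, the erythroid master factor, was at 337 to 1072 CPM in preMegE VF and 667 to 1043 in preMegE KI, against 15.7 to 20.1 in LTHSC VF and 4.71 to 9.36 in LTHSC KI. Of the other genes chosen as preMegE markers, Gata1, Epor and Gfi1b were also higher in each preMegE library. Eng, Slamf1 and Kit were higher on average in LTHSC, so not all chosen markers ran this way. Total counts were 12798410 to 28123119 per library with 13912 to 16006 genes detected. The first principal component, with 79.8% of the variance of 500 genes, separated the populations, and the second (5.72%) placed all 6 VF libraries above 0 and all 6 KI libraries below it.

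Some libraries stood apart. In preMegE KI 1 the TMM factor was 0.515, against 0.932 to 1.18 in the other 11 libraries, and its genes under 1000 bases in length lay a median of 2.13 (log2) above the mean of the other 2 libraries of its group. Its summed lymphoid markers reached 5982 CPM, against 803 to 1389 in preMegE VF and 1036 and 1531 in the other preMegE KI libraries. The largest members of the sum in preMegE KI 1 were Nkg7, Vpreb1 and Vpreb3, with 20716, 7675 and 7438 counts. Nkg7 was also high in the other preMegE libraries, with 20972 counts in preMegE VF 1 and 9239 in preMegE KI 3. The nuclear RNA Malat1 was at 14721 CPM in preMegE KI 1 and at 830 to 2944 CPM in the other preMegE libraries. The tests were therefore run with all 12 libraries and again with the 11 that remain without preMegE KI 1. Values are from all 12 unless preMegE KI 1 is said to be left out. LTHSC KI 2 had summed neutrophil and monocyte markers of 3956 CPM, against 1638 in LTHSC KI 1 and 1671 in LTHSC KI 3. It was left out only in its turn, as each library was. The VF 2 libraries of both populations held Xist, the RNA of the inactive X chromosome, at 332 CPM in preMegE and 459 CPM in LTHSC, against at most 11.7 CPM in the other 10. Both also held Y-linked reads (summed 57.7 and 159.9 CPM), so each count was also taken without both VF 2 libraries, a choice made once the data had been seen.

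**Figure D1:**
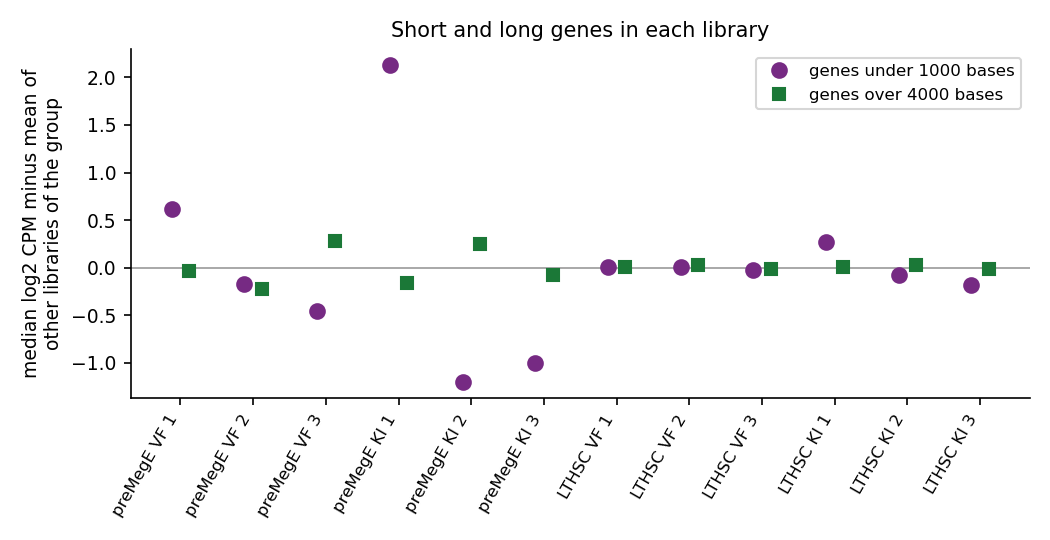
Median deviation of genes under 1000 bases (circles) and over 4000 bases (squares) in each library, as log2 CPM minus the mean of the other libraries of its group. The short genes of preMegE KI 1 lie at 2.13 and those of preMegE KI 2 and 3 at -1.20 and -0.9998, while the 6 LTHSC libraries lie between -0.19 and 0.26.

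Few genes passed any of the tests with all 12 libraries. Of 14387 genes tested, the VF effect differed between preMegE and LTHSC in 4 (0.0278%), at a Benjamini-Hochberg adjusted p under 0.05 from the quasi-likelihood test of edgeR, the source of every adjusted p given here. In 3 of them (0.0209% of genes tested), Fcgr3, Elane and Hdc, the effect was higher in preMegE, and in 1 (0.00695%), Podxl, it was lower. At an unadjusted p under 0.05 the difference was met by 990 genes. VF differed from KI in 6 genes of preMegE (0.0417%), of which 2 rose (0.0139%) and 4 fell (0.0278%), and in 48 genes of LTHSC (0.334%), of which 28 rose (0.195%) and 20 fell (0.139%). Scaled by library totals alone, 4 rose and 3 fell in preMegE, and 7 rose and 14 fell in LTHSC.

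Sorted by these tests, 4 effects were kept: Egr1, Fosb, Dusp1 and Echdc2 fell in VF in both populations. The VF effects on Fcgr3 and Elane passed in preMegE and for the difference but not in LTHSC, and count as gained. No gene passed in LTHSC and for the difference without passing in preMegE, so 0 effects were lost, and none passed in both with opposite signs. All 4 genes whose effects differed had opposite signs in the 2 populations with an unadjusted p under 0.05 in each, a wider form of reversal. The remaining 44 genes called in LTHSC stayed undecided, since neither the preMegE effect nor the difference passed.

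**Figure D2:**
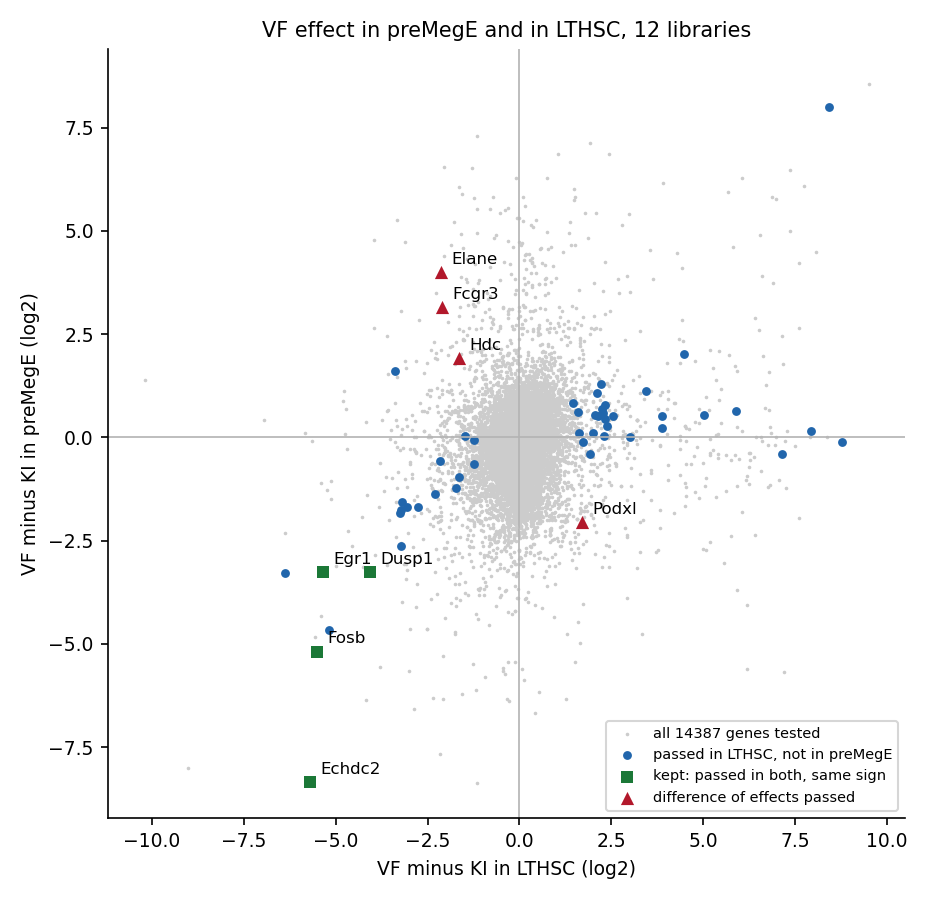
VF effect in LTHSC (x axis) against the VF effect in preMegE (y axis), both as log2 VF minus KI, for 14387 genes with all 12 libraries. Triangles are the 4 genes whose effects differed, squares the 4 genes that fell in both populations, and dark points the other genes that passed in LTHSC.

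Without preMegE KI 1 the difference passed in 14 of 14793 genes (0.0946%), 10 higher (0.0676%) and 4 lower (0.027%), and 1235 had an unadjusted p under 0.05. The 14 include all 4 genes above. In that fit 27 genes passed in preMegE (0.183%), of which 10 rose (0.0676%) and 17 fell (0.115%), and 201 in LTHSC (1.36%), of which 118 rose (0.798%) and 83 fell (0.561%). No LTHSC library was removed, but the 4 groups share an estimate of the spread: the median SE of the LTHSC effect was 0.29 without preMegE KI 1 and 0.39 with it. Kept effects then numbered 9, lost 9, gained 3 and strictly reversed 1, and 182 genes called in LTHSC were undecided. Lost means here that the preMegE effect did not pass, and includes effects of the opposite sign in preMegE. Opposite signs with an unadjusted p under 0.05 in each population were found in 11 of the 14.

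The counts rest on single libraries. The difference passed in 0 genes without preMegE VF 3, LTHSC VF 1 or LTHSC VF 2, in 1 without preMegE KI 3 or LTHSC KI 3, and in 2 without preMegE VF 1, LTHSC VF 3 or LTHSC KI 1. It passed in 3 without preMegE VF 2, 4 without LTHSC KI 2 and 5 without preMegE KI 2. Kept effects numbered 1 without preMegE VF 3, and gained ones 0 without preMegE VF 1, preMegE VF 3, preMegE KI 3, LTHSC VF 1 or LTHSC VF 2. Without both VF 2 libraries the difference passed in 0 genes, with 789 at an unadjusted p under 0.05, and 2 effects were kept. The preMegE count was 1 without preMegE VF 3, 17 without preMegE VF 2 and 199 without preMegE KI 2. The LTHSC count was 9 without LTHSC VF 2, 14 without LTHSC VF 1, 25 without LTHSC VF 3 and 17 to 19 with a single LTHSC KI library left out. It was 20 to 30 with a single preMegE VF library left out. DESeq2 called 78 genes for the difference, all 4 included, and limma voom 2.

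Jak2 itself (chr19:29251803-29313095 in GRCm38.p6, the build of all positions given, Entrez 16452) was at 58.7, 40.4 and 64.9 CPM in preMegE VF and 30.2, 37.4 and 33.0 in preMegE KI. In LTHSC it was at 109, 89.8 and 96.4 CPM in VF and 61.1, 42.8 and 69.2 in KI. The VF libraries lay above the KI libraries in both populations without overlap. The effects were 0.70 (log2) in preMegE and 0.77 in LTHSC, neither passing, and they differed by -0.07 with a 95% interval of -0.84 to 0.71 (SE 0.36, adjusted p = 0.982), or by -0.11 without preMegE KI 1 (adjusted p = 0.984). Gene counts do not show which allele was read.

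Of the 3 genes with a higher effect in preMegE, Fcgr3 and Elane stand in the neutrophil and monocyte list. Fcgr3 codes for the low-affinity IgG receptor CD16 of myeloid cells, a target of the antibodies by which mouse progenitors are usually sorted. Elane codes for neutrophil elastase, a granule protease made in early granulocyte progenitors. Their promoters, from 250 bases before to 50 after the RefSeq transcription start in GRCm38.p6, are shown because both genes ran in opposite directions in the 2 populations. Capitals mark a match, on either strand, to the C/EBP motif TTGCNNAA in Fcgr3 (chr1:171059354-171059653, minus strand, the first of 2 starts in the table) and to the ETS core GGAAGT in Elane (chr10:79886062-79886361, plus strand).
Fcgr3: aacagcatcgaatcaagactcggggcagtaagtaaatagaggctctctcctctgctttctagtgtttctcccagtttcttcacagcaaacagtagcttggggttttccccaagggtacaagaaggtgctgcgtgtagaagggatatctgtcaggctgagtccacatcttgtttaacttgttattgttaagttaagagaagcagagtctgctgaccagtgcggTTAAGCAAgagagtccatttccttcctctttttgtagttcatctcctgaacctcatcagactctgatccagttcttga
Elane: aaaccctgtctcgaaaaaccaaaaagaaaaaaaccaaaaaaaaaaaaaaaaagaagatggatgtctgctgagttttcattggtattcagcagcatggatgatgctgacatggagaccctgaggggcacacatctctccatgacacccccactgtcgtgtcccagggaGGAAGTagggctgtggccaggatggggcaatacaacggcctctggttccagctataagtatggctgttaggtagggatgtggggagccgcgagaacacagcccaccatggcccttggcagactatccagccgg
Motifs were searched on both strands in 5 promoters, and the 2 motifs do not overlap here. Of 32851 RefSeq promoters of the same length, 10.8% hold the C/EBP motif and 23.8% the ETS core, so a match is common and says nothing of binding.

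Fcgr3 (chr1:171051169-171065915, Entrez 14131) was at 87.4, 32.3 and 60.1 CPM in preMegE VF and 4.77, 5.33 and 9.89 in preMegE KI. LTHSC levels were 1.602, 1.22 and 1.18 CPM in VF and 4.44, 7.86 and 4.94 in KI. The groups did not overlap in either population, with VF the higher in preMegE and the lower in LTHSC. The effect was 3.16 (SE 0.43, adjusted p = 0.0145) in preMegE and -2.11 (SE 0.43, adjusted p = 0.0661) in LTHSC. The difference was 5.26 on the log2 scale (SE 0.61, 95% interval 3.94 to 6.58, adjusted p = 0.011). Without preMegE KI 1 the LTHSC effect of -2.12 also passed (adjusted p = 0.0186), which made Fcgr3 the strictly reversed gene of that fit. Fcgr2b, a related IgG receptor whose gene lies nearby and may share reads, was at 32.5 ± 15.4 CPM in preMegE VF and 11.3 ± 4.09 in preMegE KI (SD, n = 3 each). The LTHSC libraries were at 1.79 ± 0.991 CPM in VF and 3.49 ± 2.20 in KI, and its difference of 2.47 did not pass (adjusted p = 0.583).

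Elane (chr10:79886312-79888216, Entrez 50701) was at 2507, 616 and 946 CPM in preMegE VF and 94.0, 77.2 and 82.9 in preMegE KI. Stem cell levels were 9.85, 13.4 and 15.4 CPM in VF and 20.4, 89.6 and 60.4 in KI. Again VF lay above KI in preMegE and below it in LTHSC, without overlap, and preMegE VF 1 was the highest library. The effect was 4.00 (SE 0.59, adjusted p = 0.0258) in preMegE and -2.14 (SE 0.55, adjusted p = 0.17) in LTHSC, and the difference 6.14 (SE 0.80, 95% interval 4.42 to 7.87, adjusted p = 0.0203), or 6.26 without preMegE KI 1 (adjusted p = 0.0075).

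Hdc (chr2:126593659-126624025, Entrez 15186) codes for histidine decarboxylase, which makes histamine in basophils, mast cells and myeloid progenitors. It was at 105, 96.3 and 70.9 CPM in preMegE VF and 16.3, 37.8 and 17.6 in preMegE KI. LTHSC values were 1.56, 1.33 and 1.73 CPM in VF and 5.75, 3.37 and 5.50 in KI. The 2 lines were separate in both populations, in opposite order. The effects of 1.92 in preMegE and -1.65 in LTHSC did not pass alone (adjusted p = 0.0828 and 0.107), while the difference of 3.57 did (SE 0.51, 95% interval 2.48 to 4.67, adjusted p = 0.0268). Leaving out preMegE KI 1 gave 3.39 (adjusted p = 0.0147), and with line and number as a replicate block it no longer passed (3.65, adjusted p = 0.0739).

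Podxl (chr6:31519493-31563937, Entrez 27205) ran the opposite way. It codes for podocalyxin, a sialomucin of the CD34 family found on stem cells, endothelium and platelet precursors. It was at 28.3, 21.8 and 20.0 CPM in preMegE VF and 145, 71.7 and 74.4 in preMegE KI. In stem cells it stood at 93.9, 65.3 and 47.6 CPM in VF and 17.8, 30.01 and 16.2 in KI. VF was thus the lower line in preMegE and the higher in LTHSC, with no overlap in either. The effects were -2.05 in preMegE (adjusted p = 0.0828) and 1.69 in LTHSC (adjusted p = 0.0842), and the difference -3.74 (SE 0.52, 95% interval -4.85 to -2.63, adjusted p = 0.0249). Without preMegE KI 1, its highest preMegE library, the difference was -3.30 (adjusted p = 0.0075).

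**Figure D3:**
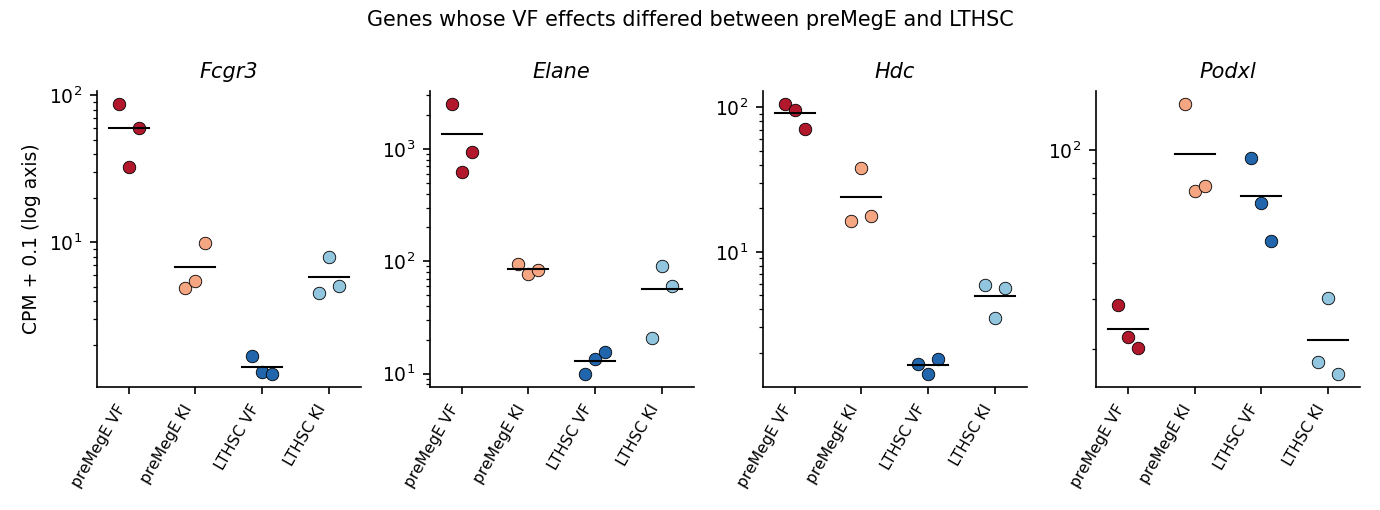
CPM plus 0.1 on a log axis in each library (points) with group means (lines) for Fcgr3, Elane, Hdc and Podxl. In all 4 genes the 2 lines do not overlap in either population, and the higher line in preMegE is the lower one in LTHSC. The genes were chosen by the test of the difference on these same libraries.

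The direction of these 4 differences held under all 21 alternatives, while the calls did not. The difference lay between 4.89 and 5.67 for Fcgr3, passing in 15 of the 21, and between 5.35 and 6.54 for Elane, passing in 13. For Hdc it lay between 3.39 and 4.07, passing in 6, and for Podxl between -4.07 and -3.30, passing in 11.

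The fit without preMegE KI 1 added 10 genes to the difference, chosen for their values in these data. Of the 7 higher ones Mpo, Ctsg and Ly6c2 stand in the neutrophil and monocyte list. Mpo, the myeloperoxidase of neutrophil granules, was at 10751, 7291 and 7817 CPM in preMegE VF and 447, 1845 and 1417 in preMegE KI. In LTHSC it was at 40.2, 61.4 and 66.4 CPM in VF and 79.7, 375 and 192 in KI. VF was the higher line in preMegE and the lower in LTHSC without overlap. The difference was 4.75 with all libraries (SE 0.82, adjusted p = 0.0872) and 4.38 without preMegE KI 1 (SE 0.64, adjusted p = 0.0147).

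Ctsg, the granule protease cathepsin G, was at 1857, 635 and 850.3 CPM in preMegE VF and 419.6, 204 and 149 in preMegE KI. LTHSC levels were 4.02, 4.63 and 4.83 CPM in VF and 9.56, 36.5 and 13.5 in KI, and its difference without preMegE KI 1 was 4.84 (adjusted p = 0.0147). Ly6c2, a surface protein of monocytes, was at 218, 34.7 and 126 CPM in preMegE VF and 17.9, 10.5 and 12.6 in preMegE KI. The LTHSC libraries were at 3.59, 4.00 and 3.97 CPM in VF and 6.72, 17.2 and 6.51 in KI (difference 4.89, adjusted p = 0.0362). These genes show the order of Elane, with the 2 lines apart in each population. Igsf6, an immunoglobulin-family membrane protein of myeloid cells, averaged 56.3 ± 33.7 CPM in preMegE VF, 11.1 ± 7.38 in preMegE KI, 2.38 ± 0.124 in LTHSC VF and 12.0 ± 7.46 in LTHSC KI (SD, n = 3 each).

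Further genes outside that programme had higher effects in preMegE without preMegE KI 1. Phldb2, a cytoskeletal adaptor, averaged 2.09 ± 0.796 CPM in preMegE VF, 0.163 ± 0.111 in preMegE KI, 4.82 ± 0.252 in LTHSC VF and 10.4 ± 5.01 in LTHSC KI, and the preMegE KI libraries held 2, 5 and 1 counts. Mtus1, a microtubule-associated protein, averaged 17.0 ± 8.24 CPM in preMegE VF, 2.09 ± 1.61 in preMegE KI, 6.39 ± 2.39 in LTHSC VF and 15.3 ± 3.55 in LTHSC KI (SD, n = 3 each). Their differences were 5.22 for Phldb2 (adjusted p = 0.0288) and 3.78 for Mtus1 (adjusted p = 0.0403).

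The other lower genes of that fit rose in VF stem cells and did not pass in preMegE. Clu, the secreted chaperone clusterin, was at 38.1, 28.9 and 13.3 CPM in preMegE VF and 27.7, 26.9 and 24.5 in preMegE KI. LTHSC values were 167, 120.2 and 89.5 CPM in VF and 13.2, 18.8 and 14.6 in KI. Its effect of 3.01 passed in LTHSC (SE 0.37, adjusted p = 0.00292), and the 2 lines overlapped in preMegE (0.02, SE 0.35). The difference was -2.92 without preMegE KI 1 (adjusted p = 0.0403) and -2.99 with it (adjusted p = 0.0872).

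Gpc3, a cell surface heparan sulfate proteoglycan, showed the same pattern at a lower level. It was at 6.22, 8.12 and 7.09 CPM in preMegE VF and 5.17, 6.83 and 6.14 in preMegE KI. In stem cells it stood at 3.71, 3.57 and 5.46 CPM in VF and 0.139, 0.408 and 0.281 in KI (difference -3.72 without preMegE KI 1, adjusted p = 0.0435). Clca3a1, a secreted regulator of chloride channels, averaged 52.0 ± 5.97 CPM in preMegE VF and 68.6 ± 5.16 in preMegE KI. In LTHSC it averaged 95.4 ± 13.4 CPM in VF and 25.3 ± 10.4 in KI (SD, n = 3 each, difference -2.35 without preMegE KI 1, adjusted p = 0.0423). Clu, Gpc3 and Clca3a1, together with Podxl, are the lost effects of that fit that were higher in VF stem cells. Hdc, Mpo, Ctsg and Igsf6 are among those that were lower. Podxl, Hdc, Mpo, Ctsg, Igsf6 and Clca3a1 had the opposite sign in preMegE without passing there. The gained ones were Elane, Ly6c2 and Phldb2.

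The neutrophil and monocyte list was mixed in preMegE. Of its 29 measured members 25 had a higher effect in preMegE than in LTHSC, against 6703 of the 14387 genes tested. The median difference was 1.47, against -0.05 over all genes tested. The median effect of the list was 0.49 in preMegE and -1.34 in LTHSC. In preMegE 15 members were positive while negative in LTHSC, and 11 were negative in both (2572 and 4085 of all genes tested). Genes of late neutrophils are among the 11: Ngp, a late granule protein, was at 403, 14.0 and 62.3 CPM in preMegE VF and 139, 396 and 413 in preMegE KI. Its LTHSC levels were 91.6, 87.7 and 47.4 CPM in VF and 202, 802 and 219 in KI. S100a8, a calcium-binding protein of mature neutrophils, was at 2321, 14.7 and 79.2 CPM in preMegE VF and 1942, 333 and 457 in preMegE KI. The lines overlapped in preMegE for both, with VF 1 high and VF 2 and VF 3 low. Camp and Ltf, further late granule genes, had preMegE effects of -0.34 and -1.05, and none of the 4 passed with or without preMegE KI 1. In the 11 libraries 19 members were positive in preMegE and negative in LTHSC and 7 negative in both, with S100a8 at 1.06 and Ngp at -1.31 in preMegE. For the difference 2 members passed with all libraries, Fcgr3 and Elane (0.0209% of all genes were higher). It was 5 without preMegE KI 1, when Ly6c2, Mpo and Ctsg joined and the median was 1.82 (0.0676% of all genes were higher). In preMegE 5 members then rose, Elane, Ly6c2, Fcgr3, F13a1 and Prtn3 (0.0676% of all genes rose). In LTHSC 4 fell, Fcgr3, Mpo, Ctsg and Cebpe (0.561% of all genes fell). F13a1, the clotting factor XIII subunit, rose in preMegE by 2.84 (adjusted p = 0.0487), with an effect of 2.03 in LTHSC that did not pass (adjusted p = 0.0901).

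Summed over the list, the levels were 9552 to 21518 CPM in preMegE VF and 3576 to 4809 in preMegE KI, and 1005 to 1216 CPM in LTHSC VF and 1638 to 3956 in LTHSC KI. All 29 members had counts in each of the 4 groups. Mpo alone gave 7291 to 10751 CPM of the sum in preMegE VF and 447 to 1845 in preMegE KI, so the sum does not stand for the late neutrophil genes above. In bulk RNA a larger share of granulocyte-committed cells in the sort and more of this RNA per cell cannot be told apart. Summed mast, basophil and eosinophil markers overlapped in preMegE (834 to 1714 CPM in VF, 846 to 1791 in KI) and were at 1020.1 to 1227 CPM in LTHSC VF and 802 to 946 in LTHSC KI. In LTHSC most of this sum came from Srgn and Gata2, which had 21067 and 9790 counts in LTHSC VF 1. Hdc and Cpa3 had 40 and 61 counts there, and Hdc was the lower in VF, so the LTHSC sum does not stand for them. The mast cell proteases Mcpt4 and Tpsab1 were at 0 in all 4 groups. Summed macrophage markers were at 703 to 1758 CPM in preMegE VF and 1323 to 2832 in preMegE KI, and at 638 to 823 CPM in LTHSC VF and 521 to 605 in LTHSC KI. Apoe made up most of this sum, with 601, 1624 and 693 CPM in preMegE VF and 2771, 1295 and 1225 in preMegE KI, whereas the median effect over the 12 tested members was positive in preMegE (1.32). The part of other cells in these differences was not tested.

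Immediate-early genes made up most of the kept effects. They code for transcription factors and phosphatases induced within minutes of a growth or stress signal. Egr1 (Entrez 13653, chromosome 18, 34861207 to 34864956), a zinc finger factor that also restrains stem cell division, was at 23.0, 24.3 and 14.4 CPM in preMegE VF and 183, 272 and 138 in preMegE KI. In LTHSC it was at 67.1, 43.0 and 42.3 CPM in VF and 2453, 1545 and 2183 in KI. VF lay below KI without overlap in both. It fell by 3.27 in preMegE (SE 0.38, adjusted p = 0.00517) and by 5.34 in LTHSC (SE 0.42, adjusted p = 8.57e-05). The effect was smaller in preMegE by 2.07 (95% interval 1.01 to 3.14), a difference that did not pass over all genes (adjusted p = 0.37).

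Fosb (chr7:19302696-19310118), a Fos-family subunit of the AP-1 factor, was at 3.01, 0.912 and 1.20 CPM in preMegE VF and 89.6, 54.1 and 42.5 in preMegE KI. LTHSC levels were 6.84, 1.25 and 2.48 CPM in VF and 206, 126 and 152 in KI. It fell by 5.19 in preMegE (adjusted p = 0.00815) and by 5.52 in LTHSC (adjusted p = 0.00227). Its 2 effects differed by 0.33 (95% interval -1.38 to 2.03), so a difference anywhere within that interval was not excluded here.

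Dusp1 (chr17:26505591-26508472) codes for a phosphatase that switches off MAP kinases. Its promoter (chr17:26508423-26508722, minus strand, GRCm38.p6) is shown because it holds the cyclic AMP response element TGACGTCA, in capitals, found in 1.79% of the 32851 promoters.
Dusp1: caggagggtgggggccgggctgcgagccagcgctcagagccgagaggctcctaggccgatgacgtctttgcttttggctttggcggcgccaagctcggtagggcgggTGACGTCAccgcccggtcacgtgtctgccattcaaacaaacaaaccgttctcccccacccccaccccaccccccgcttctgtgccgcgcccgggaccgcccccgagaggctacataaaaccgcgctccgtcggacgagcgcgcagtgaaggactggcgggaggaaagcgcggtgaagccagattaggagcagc
The 300 bases of the Fosb and Hdc promoters held none of the motifs searched. These were also the AP-1 site TGANTCA, found in 7.81% of promoters, and the CArG box, found in 1.63%. Dusp1 was at 24.8, 28.3 and 20.0 CPM in preMegE VF and 122, 334 and 242 in preMegE KI. The LTHSC libraries were at 85.5, 60.003 and 82.1 CPM in VF and 1736, 771 and 1272 in KI. Both populations show the VF libraries well below KI. It fell by 3.26 in preMegE (adjusted p = 0.00815) and by 4.05 in LTHSC (adjusted p = 0.00141), and the effects differed by 0.80 (95% interval -0.37 to 1.96).

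Echdc2 (chr4:108165436-108179308, Entrez 52430), a mitochondrial protein with an enoyl-CoA hydratase domain, was close to absent in preMegE VF. It was at 0.917, 0 and 0.581 CPM in preMegE VF and 209, 148 and 129 in preMegE KI. Stem cell levels were 5.43, 4.55 and 3.42 CPM in VF and 227, 202 and 268 in KI. It fell by 8.34 in preMegE (SE 0.71, adjusted p = 0.000268) and by 5.70 in LTHSC (SE 0.61, adjusted p = 0.00141). The effects differed by -2.64 (95% interval -4.32 to -0.96, adjusted p = 0.493), and the preMegE value depends on the prior count because of the library at 0. Echdc2 passed in both populations under all 21 alternatives, whereas Egr1, Fosb and Dusp1 passed in preMegE under 18, 20 and 16 of them.

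**Figure D4:**
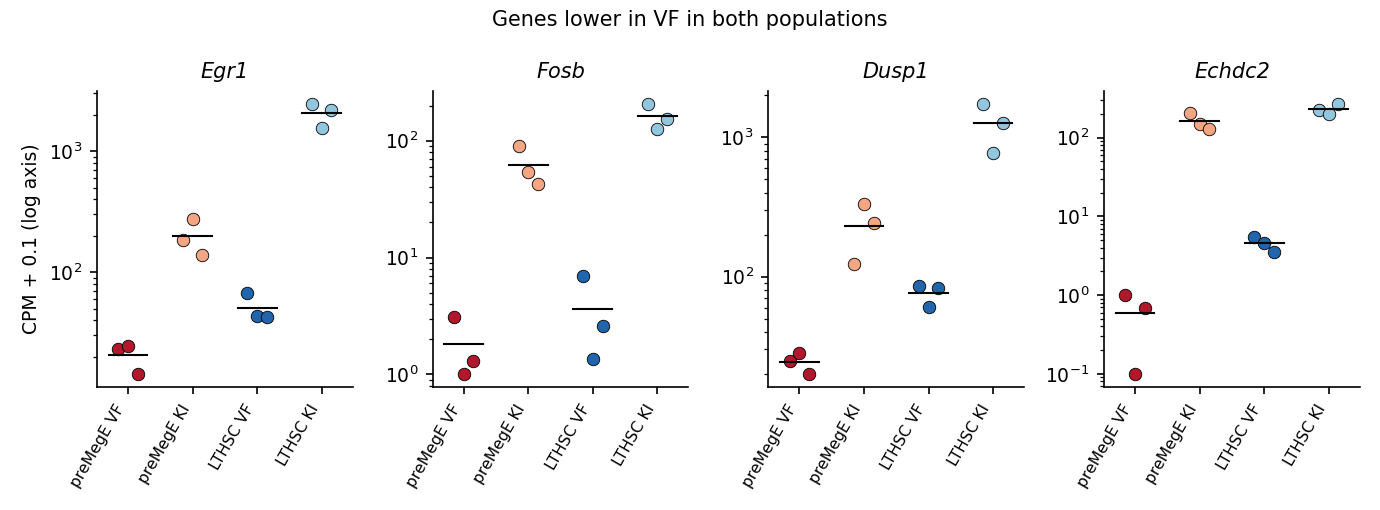
CPM plus 0.1 on a log axis in each library (points) with group means (lines) for Egr1, Fosb, Dusp1 and Echdc2. The VF libraries lie below the KI libraries in both populations for all 4 genes, and Echdc2 is at 0 in preMegE VF 2.

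Without preMegE KI 1 the kept effects also held Jun, Ppp1r15a, Ltb, Myl10 and 2610035D17Rik. Jun, the partner of Fos in AP-1, was at 64.5 ± 20.6 CPM in preMegE VF and 396 ± 137 in preMegE KI, and at 81.9 ± 65.4 CPM in LTHSC VF and 766 ± 151 in LTHSC KI. Ppp1r15a, which ends the integrated stress response, was at 76.5 ± 32.4 CPM in preMegE VF and 244 ± 54.2 in preMegE KI, and at 103 ± 18.1 CPM in LTHSC VF and 864 ± 119 in LTHSC KI. Ltb, the cytokine lymphotoxin beta, was at 10.2 ± 0.967 CPM in preMegE VF and 46.2 ± 20.1 in preMegE KI, and at 174 ± 94.7 CPM in LTHSC VF and 659 ± 39.6 in LTHSC KI (SD, n = 3 each, all libraries). All 5 fell in both populations in that fit, with effects of -2.76 and -3.23 for Jun, -1.81 and -3.08 for Ppp1r15a and -1.74 and -1.92 for Ltb in preMegE and LTHSC.

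Of the 33 measured immediate-early genes 27 had a negative effect in both populations, against 4085 of the 14387 genes tested, and 3 were positive in preMegE and negative in LTHSC. In preMegE 3 fell and 0 rose (0.0278% of all genes fell), and in LTHSC 12 fell and 0 rose (0.139% of all genes fell). The median effect was -1.27 in preMegE and -2.34 in LTHSC, against -0.01 and 0.04 over all genes tested. Of the 33 differences 28 were positive, against 6703 of the 14387 genes tested (median 0.91, 0 passing, 9 with an unadjusted p under 0.05). Junb, another AP-1 subunit, shows this: it was at 46.9 ± 8.52 CPM in preMegE VF and 139 ± 36.3 in preMegE KI, and at 66.3 ± 10.6 CPM in LTHSC VF and 607 ± 263 in LTHSC KI (SD, n = 3 each). Its effect was -1.56 in preMegE (adjusted p = 0.137) and -3.20 in LTHSC (adjusted p = 0.00141), and the difference of 1.63 did not pass (adjusted p = 0.464). Malat1 moved with these genes in LTHSC, at 1329 to 1973 CPM in VF and 3131 to 4328 in KI. In preMegE the lines overlapped (830 to 2944 CPM in VF, 1027 to 14721 in KI). Its part in the result was not tested.

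Most effects called in stem cells had the same sign in preMegE and were smaller there. Of the 48 genes called in LTHSC 42 had the same sign in preMegE, against 59.2% of all genes tested, and 47 were smaller in size. Their median size was 0.66 in preMegE and 2.65 in LTHSC. Because they were chosen for passing in LTHSC, their LTHSC effects are partly high by selection, and this comparison of sizes is a description. Of the 20 that fell in LTHSC 16 also had a negative effect in preMegE with an unadjusted p under 0.05, and of the 28 that rose 6 had a positive one, against 11.7% of all genes tested with the same sign and such a p. In the 11 libraries it was 39 of 83 that fell and 22 of 118 that rose, against 8.76% of all genes. In that fit 154 of the 201 genes called in LTHSC had the same sign in preMegE and 189 were smaller, with a median size of 0.51 in preMegE and 1.71 in LTHSC. The contrast between directions was not tested. Across all genes the 2 effects correlated weakly (Pearson's r = 0.18, Spearman's rho = 0.21 over 14387 genes, which share libraries and are not independent).

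Among the risen ones were platelet and red cell genes. Vwf, von Willebrand factor of platelets, was at 92.7, 107 and 52.9 CPM in preMegE VF and 61.6, 72.3 and 43.1 in preMegE KI, with overlap. LTHSC values were 267, 169 and 182 CPM in VF and 33.2, 38.4 and 33.7 in KI. Its effect was 0.51 in preMegE (adjusted p = 0.38) and 2.55 in LTHSC (adjusted p = 0.00292), and the difference of -2.04 did not pass (95% interval -2.96 to -1.12, adjusted p = 0.228). The ADP receptor gene P2ry1 had effects of 0.44 in preMegE and 2.32 in LTHSC, the protease inhibitor gene Serpine2 0.69 and 2.25, and the lipid exporter gene Mfsd2b 0.28 and 2.39. All 3 passed in LTHSC, and none passed in preMegE or for the difference.

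Over the 43 measured megakaryocyte and platelet genes the median effect was 0.41 in preMegE and 0.54 in LTHSC, with 3 risen in LTHSC (0.195% of all genes rose) and 0 called in preMegE. The median difference was -0.22, with 25 of 43 negative, against 7684 of the 14387 genes tested. In the 11 libraries it was -0.40, 10 rose and 1 fell in LTHSC (0.798% and 0.561% of all genes), and 0 were called in preMegE or for the difference. Of 32 erythroid genes 1 rose in LTHSC (0.195% of all genes rose) and 0 were called in preMegE (medians -0.18 in preMegE and 0.02 in LTHSC). With preMegE KI 1 left out, 4 rose in LTHSC (0.798% of all genes rose). Slamf1, the stem cell surface marker CD150, was at 22.7 ± 5.06 CPM in preMegE VF and 21.1 ± 6.50 in preMegE KI, and at 118 ± 28.3 CPM in LTHSC VF and 38.2 ± 7.95 in LTHSC KI (SD, n = 3 each). It rose in LTHSC (1.63, adjusted p = 0.043), with an effect of 0.10 in preMegE.

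Cell cycle genes leaned one way without single calls for the difference. Of 55 measured members 50 had a lower effect in preMegE than in LTHSC, against 7684 of the 14387 genes tested. The median difference was -0.74 against -0.05 over all genes tested, and 0 passed (17 with an unadjusted p under 0.05, against 990 of 14387 genes). The median effect was 0.11 in preMegE and 0.78 in LTHSC. E2f8, an E2F factor of dividing cells, was the only member called, in LTHSC (0.195% of all genes rose there). It was at 92.2, 105 and 131 CPM in preMegE VF and 64.7, 80.2 and 69.3 in preMegE KI, and at 33.9, 31.7 and 28.7 CPM in LTHSC VF and 11.2, 8.52 and 11.6 in LTHSC KI. Mki67, the Ki-67 antigen of cycling cells, was at 269, 395 and 433 CPM in preMegE VF and 492, 486 and 431 in preMegE KI. In stem cells it stood at 171, 184 and 156 CPM in VF and 96.2, 74.0 and 115 in KI, and its difference was -1.21 (95% interval -2.01 to -0.40, adjusted p = 0.517). The 2 lines overlapped in preMegE and were apart in LTHSC. Without preMegE KI 1 the median difference was -0.82, with 51 of 55 negative, against 7194 of the 14793 genes tested. In that fit 11 members rose in LTHSC (0.798% of all genes rose) and 0 were called for the difference. Cyclin B2 (Ccnb2) then had effects of -0.50 in preMegE and 0.82 in LTHSC (adjusted p = 0.0474).

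**Figure D5:**
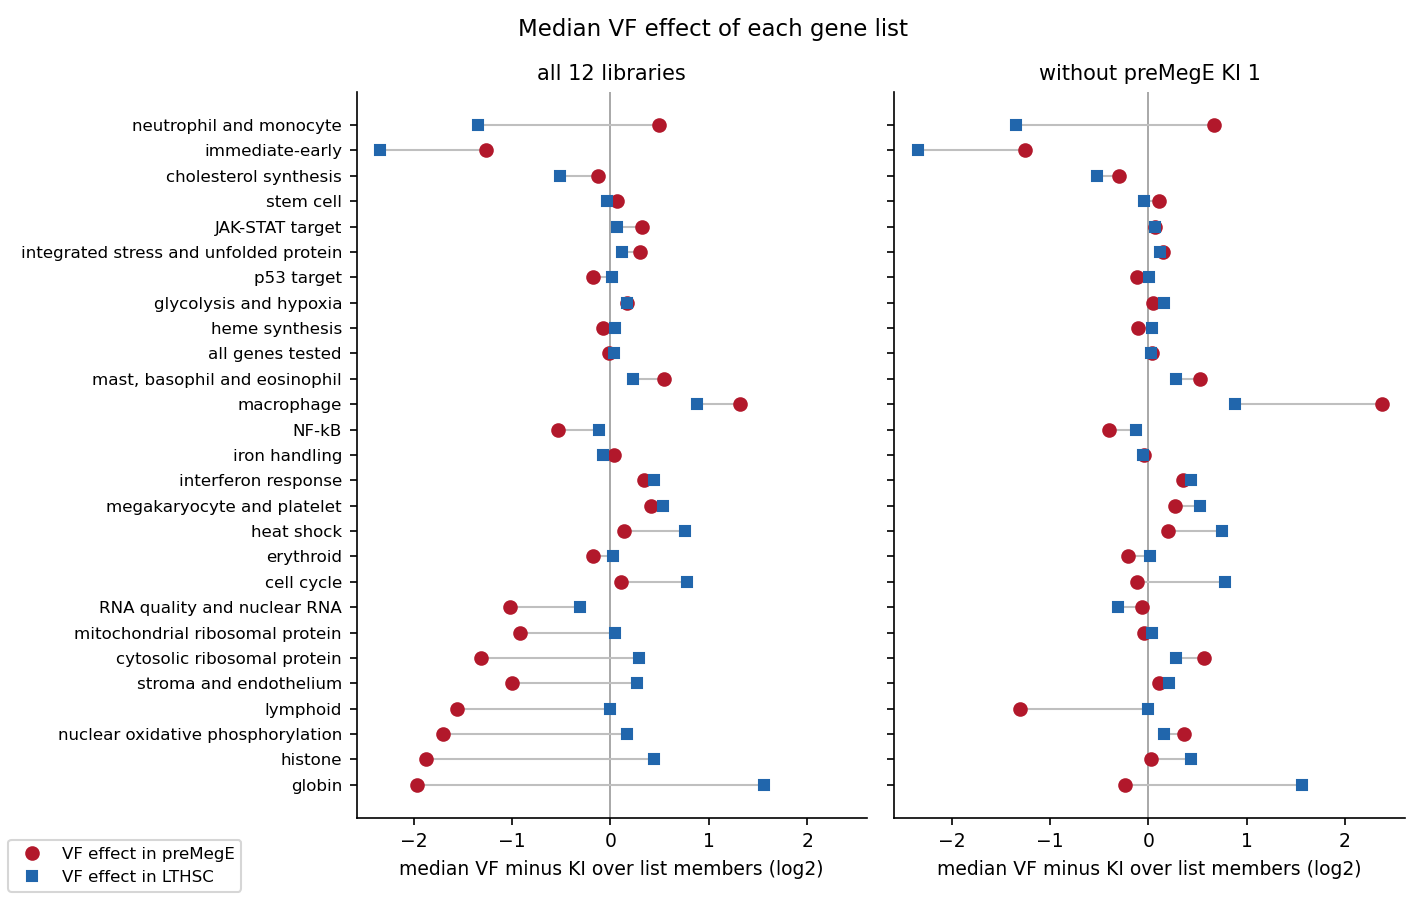
Median VF effect (log2 VF minus KI) of each gene list in preMegE (circles) and LTHSC (squares), with all 12 libraries (left) and without preMegE KI 1 (right). The gap of the neutrophil and monocyte and of the cell cycle list is similar in both panels, while that of the histone, ribosomal protein and oxidative phosphorylation lists narrows on the right. For the oxidative phosphorylation and cytosolic ribosomal protein lists the preMegE median is there the higher one.

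Several lists moved with preMegE KI 1. The median difference of 80 nuclear oxidative phosphorylation genes was -1.84 with all libraries and 0.11 without it. That of 83 cytosolic ribosomal protein genes was -1.53 and 0.20, that of 78 mitochondrial ribosomal protein genes -0.9967 and -0.07, and that of 60 histone genes -2.33 and -0.25. None of their members passed for the difference in either fit. Short genes as a whole moved likewise: over the 1328 tested genes under 1000 bases the median preMegE effect was -1.14 with all libraries and 0.12 (1396 genes) without preMegE KI 1. Over the 4152 genes above 4000 bases it was 0.23, and 0.24 (4252 genes) without it.

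Globin genes, for the chains of haemoglobin, moved in part. Hba-a1, which may share reads with its near copy Hba-a2, was at 199.7, 189 and 123 CPM in preMegE VF and 1383, 195 and 186 in preMegE KI. In LTHSC it was at 35.5, 22.6 and 30.6 CPM in VF and 12.4, 6.23 and 7.46 in KI. The lines were apart in LTHSC only, and preMegE KI 1 was the highest preMegE library. The difference was -3.55 with all libraries (adjusted p = 0.385) and -1.90 without preMegE KI 1 (adjusted p = 0.106), when its LTHSC effect of 1.77 passed (adjusted p = 0.00586). All 6 tested globin genes, which stand for 3 pairs of near copies, had a negative difference in both fits (medians -3.55 and -1.79), with 0 passing.

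The lists nearest to the iron and signalling questions of the study had few calls. Of 25 tested iron handling genes 0 passed in preMegE, LTHSC or for the difference (median difference -0.16, and 0.05 without preMegE KI 1), and 0 had an unadjusted p under 0.05 for the difference, against 2 of 26 without preMegE KI 1. Tfrc, the transferrin receptor, was at 127, 104 and 257 CPM in preMegE VF and 364, 325 and 271 in preMegE KI. LTHSC levels were 32.7, 26.2 and 17.2 CPM in VF and 30.01, 26.8 and 20.4 in KI. VF lay below KI in preMegE, and the lines overlapped in LTHSC. The difference was -0.96 (95% interval -2.01 to 0.10, adjusted p = 0.691). Fth1, the ferritin heavy chain, had a difference of -1.12 with all libraries and 0.02 without preMegE KI 1. It was at 2154, 1668 and 1629.9 CPM in preMegE VF and 8923, 1645 and 2322 in preMegE KI, with preMegE KI 1 the highest.

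Of 16 heme synthesis genes 0 passed with or without preMegE KI 1 (median differences 0.03 with it and -0.30 without it). Alas1, the first enzyme of heme synthesis in most cells, was at 159.6, 134 and 132 CPM in preMegE VF and 43.5, 82.7 and 71.7 in preMegE KI. The LTHSC libraries were at 40.2, 39.0 and 49.0 CPM in VF and 43.9, 42.9 and 36.2 in KI. The lines were apart in preMegE and overlapped in LTHSC, and the difference was 1.04 (95% interval 0.27 to 1.82, adjusted p = 0.591).

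Of 28 JAK-STAT target genes 1, Junb, fell in LTHSC (0.139% of all genes fell), and 0 were called in preMegE or for the difference (median 0.23). With preMegE KI 1 left out, 2 fell in LTHSC, Junb and Mcl1 (0.561% of all genes fell), and the median was 0.21. Cish, a feedback inhibitor of STAT signalling, was at 16.6, 16.3 and 17.8 CPM in preMegE VF and 33.5, 40.8 and 29.3 in preMegE KI. Stem cell levels were 149, 151 and 189 CPM in VF and 143, 199.9 and 165 in KI, with the lines apart in preMegE and overlapping in LTHSC. The difference was -0.98 (95% interval -1.67 to -0.29, adjusted p = 0.554). Socs2, another feedback inhibitor, had effects of -0.31 in preMegE and 0.95 in LTHSC (difference -1.26, adjusted p = 0.611). Interferon response genes had like medians in both populations (0.34 in preMegE, 0.44 in LTHSC). Of 59 genes 44 were positive in both, against 4425 of the 14387 genes tested, and 0 were called. Without preMegE KI 1, 2 of them rose in LTHSC (0.798% of all genes rose). For cholesterol synthesis genes the medians were -0.12 in preMegE and -0.51 in LTHSC. Of 25 differences 22 were positive, against 6703 of the 14387 genes tested, and 0 genes were called. Without preMegE KI 1, 18 were positive, against 7599 of 14793, and 2 genes fell in LTHSC (0.561% of all genes fell). The stem cell list had 1 fallen member in preMegE and 1 risen and 1 fallen in LTHSC of 36 (Egr1 fell in both, Slamf1 rose), with medians of 0.07 in preMegE and -0.03 in LTHSC. Over all genes 0.0278% fell in preMegE, and 0.195% rose and 0.139% fell in LTHSC.

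The 6 tested genes of RNA quality and nuclear RNA had median effects of -1.02 in preMegE and -0.31 in LTHSC, with 0 called. Their preMegE median moved to -0.06 without preMegE KI 1. None of the next 5 lists had a call for the difference, and in LTHSC Ppp1r15a, Nfkbiz and Btg2 were their fallen members (0.139% of all genes fell). With preMegE KI 1 left out, Chac1 and Ccl3 also fell and Ldha rose in LTHSC (0.561% of all genes fell and 0.798% rose). In that fit Ppp1r15a also fell in preMegE (0.115% of all genes fell). For 28 genes of the integrated stress and unfolded protein response the median effect was 0.31 in preMegE and 0.12 in LTHSC. It was 0.14 in preMegE and 0.76 in LTHSC for 14 heat shock genes, and 0.16 in preMegE and 0.17 in LTHSC for 35 genes of glycolysis and hypoxia. For 23 NF-kB genes it was -0.54 in preMegE and -0.12 in LTHSC, and for 24 p53 targets -0.17 in preMegE and 0.01 in LTHSC. The 16 tested mast, basophil and eosinophil genes, Hdc among them, had medians of 0.55 in preMegE and 0.23 in LTHSC. The 12 macrophage genes had medians of 1.32 in preMegE and 0.88 in LTHSC, and the 13 of stroma and endothelium -0.9964 in preMegE and 0.27 in LTHSC, with 0 called. The stroma and endothelium median in preMegE moved to 0.11 (14 genes tested) without preMegE KI 1. In that fit 1 of these genes rose in LTHSC (0.798% of all genes rose). For 22 tested lymphoid markers they were -1.56 in preMegE and 0 in LTHSC, and in preMegE -1.31 without preMegE KI 1. The lymphoid markers were scarce in LTHSC, where 9 of 26 were at 0 in VF and 12 in KI. Igll1, a surrogate light chain of early B cells, fell in preMegE without preMegE KI 1 (-1.79, adjusted p = 0.042, where 0.115% of all genes fell).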

How the data were processed

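RNA of sorted cells was extracted with PicoPure and made into libraries by Smart-seq2, per the labels' protocols. The authors deposited a table of raw counts per Entrez gene, and a gene length in bases that was used as a length and not as a measurement. STAR 2.7.0c and Subread 1.6.4, with featureCounts, are the tools that the submitters' processing notes name, and mm10 is the build, while annotation, strand setting and multiply mapped reads are not given in the sources used here. The 6 columns named MEP were matched to the preMegE titles by genotype and number. Of 24454 rows 16 without a symbol (at most 0.0132% of a library) were left out. Coordinates come from RefSeq genes of GRCm38.p6, matched by Entrez ID for 24374 of 24438 genes. The counts of no pair among the 12 libraries were copies (smallest chi-square per degree of freedom 19.8).

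The 4 group means were fitted in one model (R 4.3.3, edgeR 4.0.16) after TMM scaling and a filter on low counts (filterByExpr with the groups), by the robust quasi-likelihood test, 2-sided, with Benjamini-Hochberg adjustment over all genes tested and a threshold of 0.05, and the difference of effects is a contrast of that model. The SE was taken as the size of the log2 value over the square root of F. The pipeline was tested on simulated data. For genes with many counts the spread between replicates and the number of libraries, more than counting error, set the precision. For genes with few counts, such as Phldb2 with 2, 5 and 1 in preMegE KI, counting error also limits it. Reads without molecular identifiers are not independent molecules. Alternatives were RLE scaling, library totals, no filter, DESeq2 1.42.0, limma 3.58.1 voom, all 24 libraries, each population alone, replicate blocks and each library left out in turn. Adjusted p-values that DESeq2 set to NA were counted as no call.

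The members and the 27 gene lists, some of which share genes, were chosen with earlier results of these data known. Named were Jak2, up to 15 genes each way that passed for the difference with at least 10 CPM in a group, list members that passed, kept and strictly reversed genes and, since under 10 genes passed for the difference, the 10 of smallest p, without predicted and sex-linked genes. Genes called only without preMegE KI 1 and list members with no call were named after their values were seen. Overlapping genes and near copies may share reads. A gene that passed for the difference without preMegE KI 1 is counted but not reported here.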

Additional observations from a re-analysis of the deposited data

Results flagged for a closer look

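The difference between the VF effects in preMegE and LTHSC passed the test in 4 genes, which is what marks them for a closer look. It was 5.26 (log2) for Fcgr3, 6.14 for Elane, 3.57 for Hdc and -3.74 for Podxl, each tested as the interaction of line and population in edgeR, with adjusted p = 0.011, 0.0203, 0.0268 and 0.0249. In each gene all 3 VF libraries lay on one side of all 3 KI libraries in preMegE and on the other side in LTHSC. Because the genes were chosen by the test on these same libraries, this order describes them and adds no further support.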

How the results depend on the processing

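The difference between effects passed in 7 genes with no filter on low counts, 78 by DESeq2, 2 by limma voom, 0 with all 24 libraries sharing the spread and 0 without both VF 2 libraries (663 and 789 at an unadjusted p under 0.05). Leaving out each library in turn gave 0 to 14. VF against KI passed in preMegE in 16 genes with no filter, 259 by DESeq2, 13 by voom and 2 with the population alone, and in 1 to 199 with a library left out. In LTHSC it passed in 21 with library totals, 244 by DESeq2, 933 alone, 6 without both VF 2 libraries and 9 to 201 with a library left out. Library totals moved the median difference of all genes to 0.13. Kept effects numbered 7 with no filter, 36 by DESeq2, 8 by voom, 2 without both VF 2 libraries and 1 to 9 with a library left out. Lost ones numbered 2 with no filter, 32 by DESeq2 and 0 to 9 with a library left out. Gained ones numbered 22 by DESeq2, 1 by voom, 0 with all 24 libraries, 0 without both VF 2 libraries and 0 to 3 with a library left out. Strict reversals numbered 1 with no filter, 8 by DESeq2 and 0 to 2 with a library left out. Wide ones numbered 41 by DESeq2, 2 by voom, 0 with all 24 libraries, 0 without both VF 2 libraries and 0 to 11 with a library left out. The cause of these moves was not tested.

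The replicate numbers were not taken to pair the libraries: the deviations of same-numbered libraries correlated at -0.06 to 0.27, over 0.1 in 3 of 18 pairs, and those of the same line and number at -0.02 to 0.11. With the number as a replicate block the difference passed in 3 genes and gained effects numbered 1, and with line and number as a block the difference passed in 8, without Hdc (adjusted p = 0.0739). The labels do not say whether libraries of one line and number share an animal, although both VF 2 libraries hold Xist.

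Near 0, some signs turned. The Jak2 difference was 0.12 with library totals, 0.049 without both VF 2 libraries and -0.22 to 0.11 with a library left out. The Fosb difference was -0.35 to 1.24 with a library left out, negative without preMegE VF 1 or LTHSC VF 2. The preMegE effect of Clu was -0.023 by RLE and by DESeq2, -0.11 by voom, -0.071 with the number as a replicate block, -0.035 without both VF 2 libraries and -0.32 to 0.35 with a library left out. Of the values for named genes 1147 kept their side of the threshold, 112 passed it, 90 no longer passed it and 16 turned sign.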

Other observations

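Outside the lists, the effect in preMegE without preMegE KI 1 also passed in genes with nearly level LTHSC lines. Cd74, the invariant chain of MHC class II, was at 59.6, 17.5 and 18.7 CPM in preMegE VF and 117, 208 and 126 in preMegE KI. LTHSC values were 669.9, 506 and 986 CPM in VF and 541, 638 and 496 in KI, with overlap. Its preMegE effect in the 11 libraries was -2.36 (adjusted p = 0.0487), and the difference of -2.73 did not pass (adjusted p = 0.112). Prnp, the prion protein gene, was at 15.7, 12.7 and 15.8 CPM in preMegE VF and 20.5, 42.9 and 52.2 in preMegE KI. In stem cells it stood at 56.3, 40.8 and 65.3 CPM in VF and 59.6, 51.1 and 42.2 in KI, and its effects in the 11 libraries were -1.67 in preMegE (adjusted p = 0.0188) and 0.08 in LTHSC, with a difference of -1.75 (adjusted p = 0.0846). Both genes were chosen after their values were seen.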
